A study of Mus musculus with 6 samples.

Results

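The data described here are the levels of 10 genes of the circadian clock, Dbp, Nr1d1, Nr1d2, Per2, Per3, Tef, Hlf, Arntl, Clock and Nfil3, in cell types of the mouse heart other than heart muscle cells. They were found by gene symbol among the 32285 genes of the deposited matrices, and all 10 were present. The list itself was selected on measured values, since the KO against WT levels of clock genes in sham endothelial cells were known when it was drawn up. Single-cell RNA sequencing by the 10x 3' method had been run on 6 libraries, each made from the pooled live ventricular cells of 4 male mice aged 8 to 12 weeks. Wild-type (WT) mice were of the strain C57BL/6JRj, and knockout (KO) mice, which carry a targeted allele of the ion channel gene Trpm4, were of the strain B6.Cg-Trpm4tm1.2-PG. Each genotype gave 1 library 24 h after a sham operation, 1 library 24 h after LAD ligation, the tying off of a main coronary artery that causes an infarct, and 1 library 72 h after ligation. Sham hearts were collected at 24 h and there was no sham library at 72 h. All hearts were digested with thermolysin and papain, and calcein-positive, DAPI-negative cells were sorted. The time of day of surgery or of collection is not given in the sources used here. With 1 library per group there was no replicate of any group, so values are given without tests or p-values. Genotype, treatment, pool of mice, time of day and library cannot be told apart. Every interval below is a 95% interval for counting error only.

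The circadian clock is a feedback loop of transcription that runs in nearly every cell. The proteins of Arntl (also called BMAL1) and Clock form a pair that binds E-boxes in DNA and switches on the Per genes, the nuclear receptor genes Nr1d1 and Nr1d2 (REV-ERB alpha and beta) and the output gene Dbp. The PER proteins then inhibit the pair, and the REV-ERB proteins repress Arntl and Nfil3 through ROR elements, so transcripts of Arntl peak when those of Dbp and Nr1d1 are low. Dbp, Tef and Hlf encode the 3 PAR bZIP factors, which activate through D-boxes, and the NFIL3 protein represses through the same sites. In heart and vessels the loop is known to drive daily rhythms of metabolism and vascular tone. Its phase is set by the daily cycle of light, feeding and glucocorticoids.

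To show how these elements look in the genes themselves, the E-box CACGTG, the D-boxes TTATGTAA and TTACGTAA and the ROR-like elements TAGGTCA and TGGGTCA were searched on both strands of RefSeq promoters (GRCm38.p6, 250 bases before to 50 bases after each start). Promoters of 9 of the 10 genes were found, Per2 being the exception. Per3 held 2 D-boxes, Tef an E-box at each of 2 starts, and Arntl and Nfil3 a ROR-like element each. Each match is printed within 28 bases, 5′ to 3′ on the strand of the gene, and capitals mark the element.
Per3, D-box, 205 bases before the start, chr4:151044853-151044880, minus strand, intron of Camta1: gacccgcgcgTTATGTAAggtactcggg
Per3, D-box, 158 bases before the start, chr4:151044806-151044833, minus strand, intron of Camta1: ccgcccgcggTTATGTAAcccccgccgt
Tef, E-box, 127 bases before the first start, chr15:81802535-81802562, plus strand, annotated UTR of Tef: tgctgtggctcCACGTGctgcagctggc
Tef, E-box, 138 bases before the second start, chr15:81811265-81811292, plus strand, intron of Tef: acctggcccagCACGTGtctacatcgtt
Arntl, ROR-like element, 30 bases after the second start, chr7:113207531-113207558, plus strand, UTR of Arntl: aggcagaaagTAGGTCAgggacggaggt
Nfil3, ROR-like element in reverse (TGACCTA), 12 bases before the start, chr13:52981034-52981061, minus strand, UTR of Nfil3: cgctcggaacTGACCTActaacacacat
These motifs were not rare: of the 27025 genes with a promoter in the table, 8.09% held the E-box, 1.23% a D-box and 7.35% a ROR-like element. A match is a string of letters and was not shown to be bound. In the windows of Dbp, Nr1d1, Nr1d2, Hlf and Clock none of these strings occurred.

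The genes lie apart in the genome (GRCm38, GENCODE M21 positions). Dbp (ENSMUSG00000059824) is at chr7:45705088-45710203 and Arntl (ENSMUSG00000055116) on the same chromosome at chr7:113207465-113314126. Nr1d1 (ENSMUSG00000020889, chr11:98767932-98775333) and Hlf (ENSMUSG00000003949, chr11:90336536-90390895) share another. Nr1d2 (ENSMUSG00000021775) is at chr14:18204054-18239127, Per2 (ENSMUSG00000055866) at chr1:91415982-91459324 and Per3 (ENSMUSG00000028957) at chr4:151003652-151044665. Tef (ENSMUSG00000022389) is at chr15:81802421-81826863, Clock (ENSMUSG00000029238) at chr5:76209868-76304792 and Nfil3 (ENSMUSG00000056749) at chr13:52967209-52981073. Counted genes overlap some of them on the other strand, namely Sphk2 at Dbp, Thra at Nr1d1, Gm17597 at Tef and Gm45355 at Arntl, and Camta1 overlaps Per3 on the same strand. Whether counting used the strand is not given in the sources used here, so reads of such pairs could have been assigned to either gene.

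The matrices held 34940 cells, of which 32030 were kept, between 3361 and 6821 per library. Median depth per kept cell was 3072 to 4161 unique molecular identifiers (UMIs, each standing for 1 captured transcript) in the 24 h libraries, 8011 in WT ligation 72 h and 1351 in KO ligation 72 h. Trpm4 itself stood at 8.44, 5.48 and 4.18 CPM (UMIs of a gene per 1000000 UMIs) in the WT libraries and at 5.89, 3.48 and 2.47 in the KO libraries, sham first. What the allele deletes is not given in the sources used here, so 3' tags of Trpm4 are no check of the genotype. Clustering gave 39 clusters, and cell types were named from markers, with 4 clusters left without a name. Clusters named as heart muscle cells, T and NK cells, B cells and platelets are not described. Libraries shared 3 to 14 cell barcodes per pair. The KO ligation 72 h library stood apart: 4 clusters came over 80% from it, and its endothelial cells carried 11020 CPM of summed monocyte and macrophage markers against 701 to 2935 in the other libraries. Its endothelial markers summed to 16268 CPM against 27727 to 54014. Their part in the 72 h results was not tested, and values without those clusters stand beside the fibroblast and pericyte results. All other levels are CPM within a cell type, so the total is that of all cells of the type in a library.

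Endothelial cells were the largest stromal type, with 2172 cells in WT sham, 2848 in KO sham, 527 and 593 in WT and KO ligation 24 h, and 160 and 602 at 72 h. KO against WT sham, the contrast the list was selected on, is given in these cells as a description. In WT sham endothelium the 3 PAR bZIP genes were all high. Dbp stood at 387 CPM in WT sham, 61.5 in KO sham, 41.5 in WT ligation 24 h, 17.6 in KO ligation 24 h, 87.2 in WT ligation 72 h and 38.2 in KO ligation 72 h. Tef followed with 104, 37.4, 27.6, 14.7, 36.6 and 16.4 CPM in the same order. Hlf went from 52.6 CPM in WT sham to 4.66 in KO sham and was 3.81, 2.94, 10.5 and 4.37 after ligation. For each of these genes the WT sham library was the highest of the 6, and KO ligation 24 h was the lowest.

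The repressor genes of the loop followed a like order. Nr1d1 stood at 205 CPM in WT sham, 113 in KO sham, 68.1 and 48.8 in WT and KO ligation 24 h, and 40.1 and 26.2 at 72 h. Its paralogue Nr1d2 stood at 102, 49.7, 44.3, 18.2, 29.6 and 26.2 CPM. Per3, a period gene that is a weak part of the loop, stood at 81.4, 25.2, 15.7, 7.65, 31.4 and 22.9 CPM. Per2, a core repressor, was sparse in all 6 libraries, at 12.4, 3.31, 6.67, 2.94, 3.49 and 4.37 CPM. WT sham was again the highest library for each of these 4 genes.

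The activator gene Arntl ran the other way. It stood at 4.52 CPM in WT sham, the lowest of the 6 libraries, and at 23.9 in KO sham, 26.2 in WT ligation 24 h, 22.9 in KO ligation 24 h, 17.4 in WT ligation 72 h and 7.65 in KO ligation 72 h. Its partner Clock, whose transcript is known to cycle little, spanned a narrower range of 61.6, 78.4, 70.0, 71.8, 52.3 and 39.3 CPM. Nfil3, the D-box repressor, was low in endothelium, at 2.38, 5.73, 8.58, 8.24 and 1.74 CPM, except for 42.6 CPM in KO ligation 72 h.

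**Figure D1:**
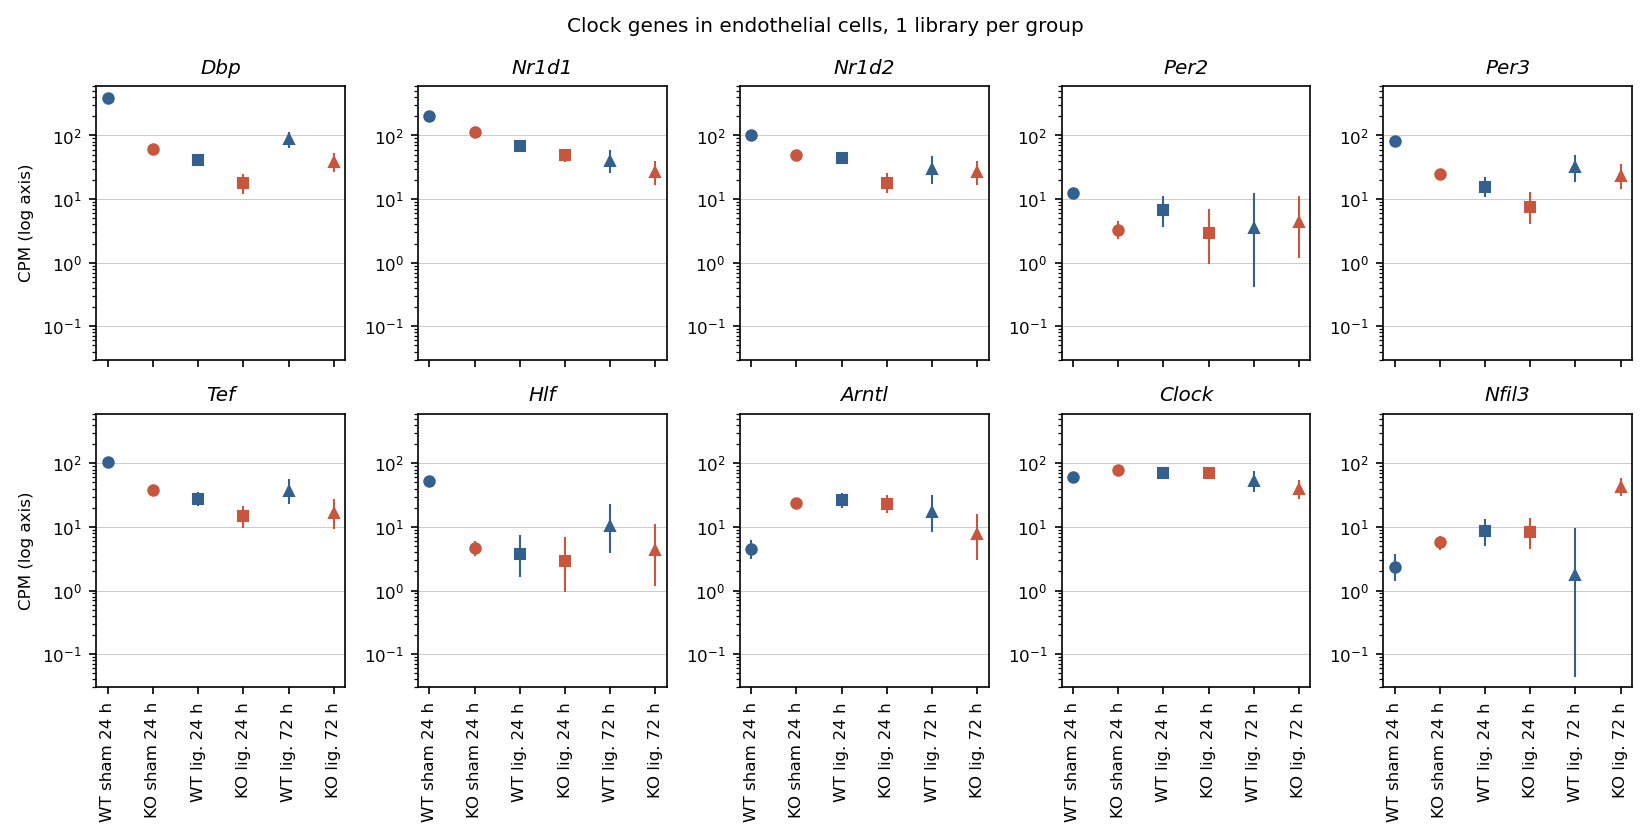
Level of each of the 10 clock genes in endothelial cells (CPM, log axis) in each of the 6 libraries, with circles for sham, squares for ligation 24 h, triangles for ligation 72 h, blue for WT and red for KO. Bars are 95% intervals for counting error; Dbp, Tef and Hlf are highest in WT sham, where Arntl is lowest.

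The question of KO against WT in sham hearts was then asked of the stromal types and of monocytes and macrophages. A gene was taken as measured in a comparison if the type had at least 20 cells in both libraries and the gene at least 50 UMIs over the pair, and as called if its level differed at least 2-fold. A gene can pass the UMI minimum through the library where it is high, so counts over measured genes are descriptions. In endothelial cells Dbp was 6.29-fold lower in KO sham (log2 ratio -2.65, interval -2.77 to -2.53) and Hlf 11.3-fold lower (-3.50, interval -3.94 to -3.08), while Arntl was 5.29-fold higher (2.40, interval 1.90 to 2.95). All 10 genes were measured, 6 were called lower and 2 higher, where 1.23% and 0.347% of all measured genes were called lower and higher, and nothing is read from these counts because the contrast was in view when the genes were listed. Nr1d2, close to 2-fold, fell short of it under 4 alternative settings (smallest ratio -0.89), and Nfil3 did so at 0.77 without doublet removal.

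The same contrast in fibroblasts, which produce the matrix of the heart, gave the same calls for most genes. Dbp stood at 173 CPM in WT sham and 29.7 in KO sham, a 5.83-fold lower level (log2 ratio -2.54, interval -2.82 to -2.27). Nr1d1 (-1.57), Nr1d2 (-1.32), Per3 (-1.95), Tef (-1.49) and Hlf (-1.09) were also called lower, and Arntl (1.75) and Nfil3 (1.43) higher. That is 6 lower and 2 higher of 10 measured, where 0.596% and 1.19% of all measured genes were called lower and higher. Nfil3 was at 0.88 without doublet removal. Per2 differed between the types: it stood at 8.40 and 9.66 CPM in WT and KO sham fibroblasts, a ratio of 0.20 with an interval from -0.48 to 0.89, against -1.91 (interval -2.49 to -1.35) in endothelium. The same mice and libraries gave both types, so the fibroblasts are no independent sample of the genotypes.

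Mural cells, which wrap the vessels, showed the order as well. In pericytes Dbp stood at 519 CPM in WT sham and 77.6 in KO sham (log2 ratio -2.74, interval -3.38 to -2.16). Hlf stood at 145 and 41.6 CPM (-1.80), Nr1d1 at 329 and 125 (-1.40) and Nr1d2 at 141 and 63.7 (-1.15), so that 4 of 5 measured genes were called lower, where 1.92% of all measured genes were. Clock, the fifth, had a ratio of 0.80 with an interval from -0.08 to 1.72. In smooth muscle cells Dbp stood at 206 and 43.6 CPM (-2.24, interval -2.68 to -1.82), and Hlf (-2.16), Per3 (-2.12), Tef (-1.48), Nr1d2 (-1.39) and Nr1d1 (-1.29) were called lower too, 6 of 7 measured against 0.827% of all measured genes. With cells thinned to 1000 UMIs, Per3 and Tef in smooth muscle cells were both at -0.53. Transcripts of other cells moved with these comparisons: pericytes carried 233 CPM of summed monocyte and macrophage markers in WT sham, 6478 in KO sham, 4954 in WT ligation 24 h and 1638 in KO ligation 24 h, and erythroid markers at 21360 CPM in WT sham against 3 to 39 in the other 3. Their platelet markers stood at 33 CPM in WT sham and 1130 in KO sham, and at 2822 and 125 after ligation. Smooth muscle cells carried 101 and 103 CPM of neutrophil markers in WT and KO sham and 3584 and 5105 in ligation 24 h. The part of these markers in the mural values was not tested. Arntl rested on few UMIs in these types: 2 in WT sham and 20 in KO sham pericytes, and 7 and 27 in smooth muscle.

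Monocytes and macrophages had lower levels and smaller ratios. Dbp stood at 15.5 CPM in WT sham and 5.24 in KO sham (log2 ratio -1.57, interval -2.08 to -1.08), and -0.82 when cells were thinned to an equal 1000 UMIs. Per3 was just past 2-fold lower (interval of the log2 ratio -1.66 to -0.38), so 2 of 8 measured genes were called lower, against 0.283% of all measured genes. Nr1d1 (-0.84) and Tef (-0.74) were lower and Arntl (0.96, interval 0.51 to 1.42) higher, all less than 2-fold. Thinned cells gave -1.47 for Nr1d1, 0.01 for Tef and 0.34 for Nr1d2, so these ratios were not stable to thinning. Median depths were 9848 UMIs in WT sham and 9667 in KO sham. After thinning, 98.7% of WT and 99.5% of KO sham cells held no Nr1d1 UMI. The cause of these shifts was not tested. Nfil3, far more abundant in these cells than in stroma, stood at 81.8 and 81.7 CPM.

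**Figure D2:**
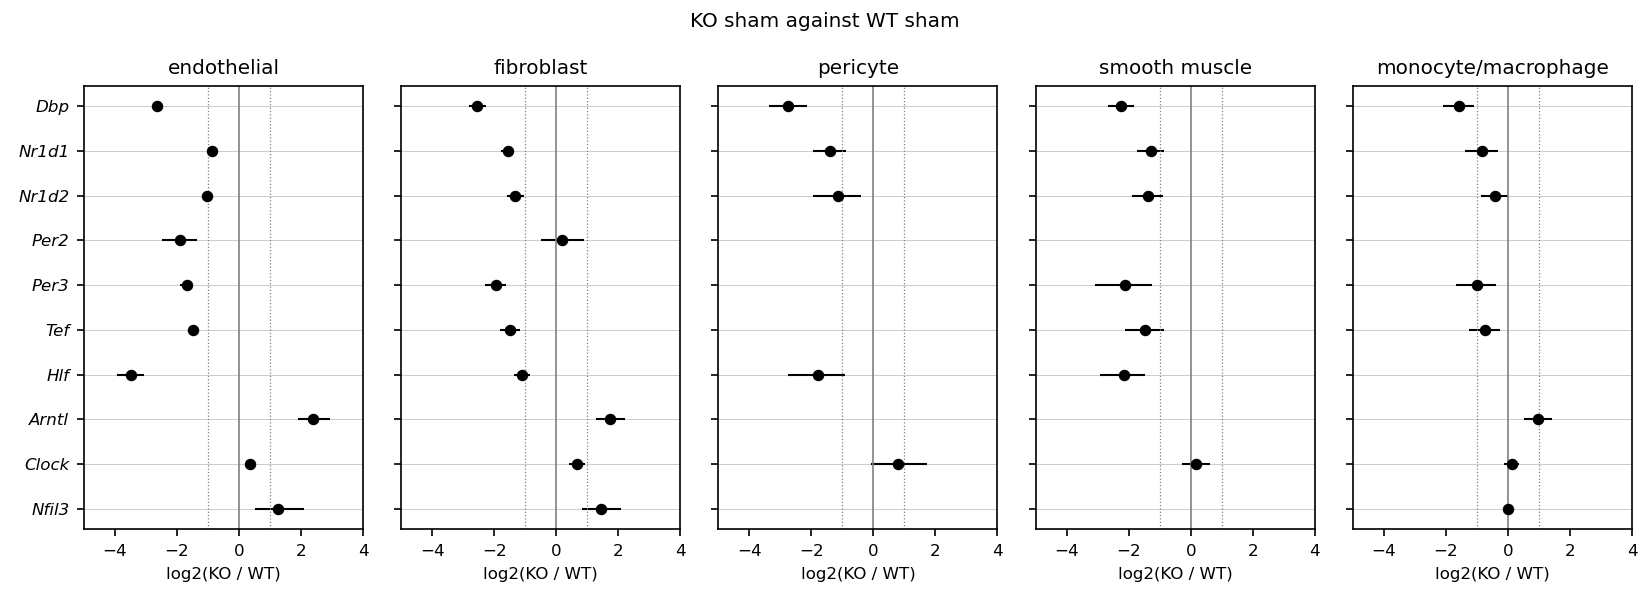
Log2 ratio of KO against WT sham for each measured clock gene in 5 cell types, with dotted lines at 2-fold and bars for 95% counting intervals. Dbp lies below the lower line in each type drawn, from -2.74 in pericytes to -1.57 in monocytes and macrophages, while Arntl lies above 0 wherever it was measured.

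Ordered by Dbp in WT sham hearts, pericytes (519 CPM, interval 442 to 607) came first, then endothelial cells (387, interval 373 to 401), smooth muscle cells (206, interval 179 to 235) and fibroblasts (173, interval 160 to 186). The intervals of smooth muscle cells and fibroblasts overlapped. Lymphatic endothelial cells followed at 45.5 CPM (17 UMIs, interval 26.5 to 72.8), then monocytes and macrophages at 15.5, neutrophils at 7.48 and dendritic cells at 3.58. The small stromal types were thus not alike: lymphatic vessels lay below blood vessels in Dbp, and also in Nr1d1, at 32.1 against 205 CPM, while Clock stood at 91.0 CPM against 61.6 (log2 ratio 0.56, interval 0.015 to 1.06). In KO sham the lymphatic cells held 3 Dbp UMIs (13.8 CPM, interval 2.84 to 40.3), whose interval overlaps that of WT sham. Mesothelial cells reached 20 cells only in KO ligation 72 h, where Dbp stood at 12.7 CPM, Tef at 27.4 and Nfil3 at 46.4.

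Shares of cells with a transcript describe the same contrast again, on which the list was selected, and add no independent support. In WT sham, 61.5% of endothelial cells held a Dbp UMI (exact interval 59.4% to 63.6%), and in KO sham 15.4% did (14.1% to 16.8%), at median depths of 3221 and 3324 UMIs. Neutrophils, where the Dbp level was low, served as a background. Their shares were 1.81% and 0.744% at median depths of 2262 and 2174 UMIs. After thinning to 1000 UMIs per cell the endothelial shares were 31.3% and 5.39%, and the neutrophil shares 0.928% and 0.455%. The endothelial shares were thus above this background in both libraries. After ligation the thinned endothelial shares were 3.28% and 1.16% at 24 h and 7.09% and 3.22% at 72 h, WT first.

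Within endothelium the sham contrast, on which the list was selected, is given by cluster as a description. The clusters share mice and libraries, so they are no replicates. Dbp was lower in KO beyond counting error in each of the 5 clusters with enough counts. In the largest cluster, led by Timp4, Aqp1 and Fmo1 it stood at 353 CPM in WT sham and 48.8 in KO sham (log2 ratio -2.85). The cluster led by Rbp7, Stmn2 and Sema3g gave 493 and 78.7 CPM (-2.65). The smallest ratio was in the cluster led by Cytl1, Vwf and H19, with Npr3 among its leading genes, at 298 and 136 CPM (-1.14, interval -1.49 to -0.79). In that cluster Nr1d1 stood at 151 and 152 CPM, a ratio of 0.01 (interval -0.37 to 0.39), whereas in the Timp4 cluster it was -1.06. Hlf was lower in the Cytl1 cluster too, at 101 and 32.5 CPM (-1.64). An unnamed cluster led by Apln and Pgf, left out of the endothelial sums, gave 175 and 33.5 CPM of Dbp (-2.38).

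At 24 h after ligation Dbp in the Cytl1 cluster stood at 86.9 CPM in WT and 77.5 in KO, a ratio of -0.17 (interval -1.11 to 0.75), against 24.8 and 4.13 CPM in the Timp4 cluster (-2.59, interval -4.97 to -0.85). Of the 30 Dbp UMIs of all KO ligation 24 h endothelial cells, 19 came from the 36 cells of the Cytl1 cluster. The KO endothelial level of 17.6 CPM at 24 h therefore rests largely on 1 small cluster. In KO ligation 72 h the order was not kept, with 39.7 CPM (9 UMIs) in the Cytl1 cluster and 110 CPM (8 UMIs) in the Timp4 cluster. Fibroblast clusters were closer to each other: Dbp was lower in KO sham in the cluster led by Clec3b, Dpep1 and Tnxb (-2.78) and in that led by Dkk3, Wif1 and Ccl19 (-2.67). Among macrophages, Dbp was concentrated in the cluster led by Mgl2, Lyve1 and Cbr2, at 67.2 CPM in WT sham and 18.3 in KO sham (-1.88), against 3.82 and 1.25 CPM in the cluster led by Ccl24, Arg1 and Ltc4s. Arntl in the Mgl2 cluster stood at 9.91 and 25.0 CPM (1.33, interval 0.52 to 2.21).

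The response to ligation at 24 h was next compared with sham within each genotype. In WT endothelial cells the genes that Arntl and Clock drive were lower and Arntl higher. Dbp was 9.33-fold lower (log2 ratio -3.22, interval -3.55 to -2.92), and Hlf (-3.79), Per3 (-2.37), Tef (-1.91), Nr1d1 (-1.59) and Nr1d2 (-1.20) were called lower as well. Arntl was higher (2.54, interval 1.90 to 3.18), Per2 was lower by less than 2-fold (-0.90, interval -1.82 to -0.08), and Clock had a ratio of 0.19 (interval -0.09 to 0.45). These were 6 lower and 1 higher of 9 measured, against 2.11% lower and 1.93% higher of all measured genes. Of the 6, Nr1d2 was at -0.98 in thinned cells. The WT sham library is the reference here and in the sham contrast above, so a high Dbp in that library alone enters both.

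In KO endothelial cells the same step was smaller for Dbp over the whole type and was not seen for Arntl. Dbp went from 61.5 to 17.6 CPM (-1.80, interval -2.38 to -1.27), and Per3 (-1.72), Nr1d2 (-1.45), Tef (-1.35) and Nr1d1 (-1.21) were called lower, 5 of 9 measured against 1.85% of all measured genes. In thinned cells Nr1d2 and Tef, the latter at -0.93, were just under 2-fold. Arntl had a ratio of -0.06 (interval -0.58 to 0.43) and Hlf of -0.66 (interval -2.34 to 0.65). The KO response minus the WT response was 1.42 for Dbp (interval 0.81 to 2.03), 3.12 for Hlf (1.46 to 4.79) and -2.60 for Arntl (-3.37 to -1.82), while for Nr1d1 it was 0.38 (-0.02 to 0.79) and for Nr1d2 -0.24 (-0.85 to 0.36), intervals that include 0. Within clusters the steps of Dbp lay closer together, at -3.83 in WT and -3.56 in KO in the Timp4 cluster, -3.47 and -3.24 in the Rbp7 cluster, and -1.78 and -0.81 in the Cytl1 cluster. These differences have no replicate check. In the levels behind them, WT sham and KO sham lay far apart, and the ligation 24 h libraries of both genotypes lay low in Dbp and between 22.9 and 26.2 CPM in Arntl.

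Between the genotypes at 24 h after ligation, endothelial Dbp remained lower in KO (41.5 and 17.6 CPM, log2 ratio -1.23, interval -1.88 to -0.62), as did Nr1d2 (-1.28, interval -1.92 to -0.68). These were 2 of 6 measured genes, against 1.53% of all measured genes called lower. Neither held in every setting, since Dbp was at -0.91 at Leiden resolution 0.5 and Nr1d2 under 2-fold in 4 settings (smallest -0.76). Tef (-0.91) and Nr1d1 (-0.48) were lower by less than 2-fold. Arntl (-0.19, interval -0.82 to 0.43) and Clock (0.03, interval -0.32 to 0.39) did not differ beyond counting error.

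Fibroblasts gave the ligation response with the same signs in WT. Dbp went from 173 to 31.9 CPM (log2 ratio -2.44, interval -2.79 to -2.11), and Per3 (interval -2.44 to -1.58), Hlf (-1.23) and Nr1d2 (-1.16) were called lower, with Arntl (1.11) and Nfil3 (1.17) called higher. These 4 lower and 2 higher of 10 measured genes stand against 4.34% and 4.84% of all measured genes. In thinned cells Nr1d2 (-0.73) and Arntl (0.60) were under 2-fold. Within clusters Dbp ran from -2.31 to -0.92, Per3 from -1.69 to -0.24, Nr1d2 from -1.24 to -0.78 and Hlf from -0.99 to 0.55. In KO fibroblasts Dbp went from 29.7 to 8.09 CPM (-1.87, interval -2.65 to -1.17), Hlf (-1.28), Nr1d1 (-1.08) and Tef (-1.01) were called lower, 4 of 10 against 9.05% of all measured genes. None of these 4 calls held in every setting: in thinned cells Dbp was at -0.89, Nr1d1 at -0.74 and Tef at -0.15. Within the KO clusters compared Dbp ran from -2.41 to -1.12. There Nr1d1 ran from -0.64 to -0.42, Hlf was at -0.40 and Tef at -0.83, none of them beyond counting error. Arntl was lower in KO (-0.51, interval -0.94 to -0.10) where it was higher in WT, 40.7 to 28.5 CPM against 12.1 to 26.1. Within clusters the KO step of Arntl was 0.10 (interval -0.42 to 0.59) in the Clec3b cluster, against 1.04 in WT, and -0.03 (15 UMIs against 7) in a cluster led by Cxcl5, which held 29 of 456 fibroblasts in KO sham and 67 of 182 in KO ligation 24 h. The interval of each includes 0, and over all KO fibroblasts thinned cells gave -1.31. The median of all measured genes moved by -0.20 in the KO comparison, and the KO ratios are to be read against that shift. Between the genotypes at 24 h, Dbp (31.9 and 8.09 CPM, -1.98, interval -2.78 to -1.25), Nr1d1 (-1.64), Tef (-1.52) and Hlf (-1.14) were lower in KO, 4 of 9 measured against 2.39% of all measured genes (Tef was at -0.55 in thinned cells and Hlf at -0.90 as a mean over cells), and Arntl was at 0.13 (interval -0.38 to 0.64).

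**Figure D3:**
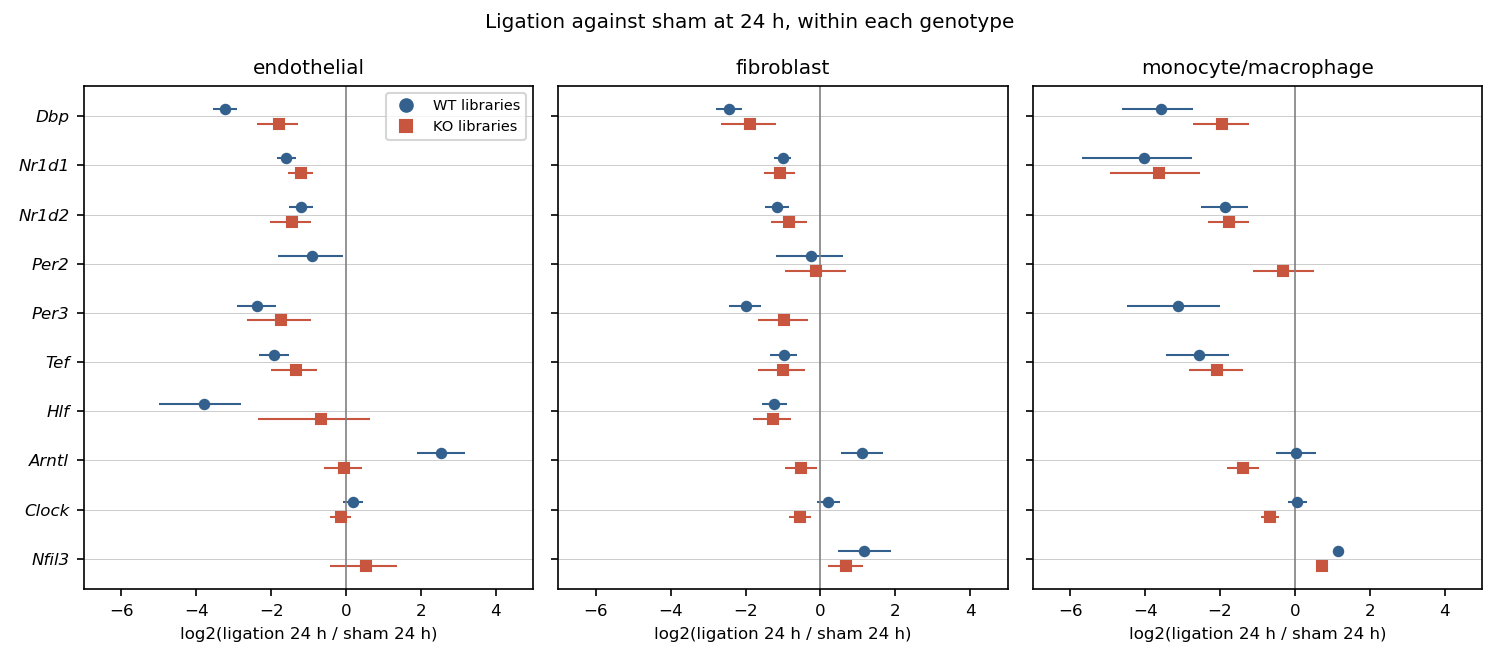
Log2 ratio of ligation 24 h against sham 24 h for each measured clock gene by cell type, blue for WT and red for KO, with 95% counting intervals. In endothelial cells Arntl lies at 2.54 in WT and at -0.06 in KO, while Dbp lies below 0 in both.

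In WT pericytes Dbp went from 519 to 46.1 CPM after ligation (log2 ratio -3.49, interval -4.40 to -2.70) and in WT smooth muscle cells from 206 to 21.6 (-3.25, interval -4.40 to -2.30). All 3 genes measured in WT pericytes, Dbp, Nr1d1 and Nr1d2, were called lower (4.05% of all measured genes), and 3 of 6 in WT smooth muscle cells (2.35%), where Hlf was at 0.059 in thinned cells. In KO ligation 24 h each of these types held 1 Dbp UMI, or 3.38 CPM in pericytes and 3.24 in smooth muscle cells. KO pericytes kept Nr1d1 at 97.9 CPM, a ratio to sham of -0.35 (interval -1.07 to 0.36), while KO smooth muscle cells had 12.9 CPM of it on 4 UMIs, against 53.9 in sham (3 of 4 measured genes called lower, 2.65% of all).

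Monocytes and macrophages, a mixture of resident cells and cells arriving from blood, had the largest Nr1d1 ratios. In WT it went from 9.59 to 0.588 CPM (log2 ratio -4.03, interval -5.68 to -2.76) and in KO from 5.36 to 0.430 (-3.63, interval -4.93 to -2.53). Dbp was lower by -3.59 in WT and -1.96 in KO. In all, 5 of 8 measured genes were called lower in each genotype, against 3.77% of all measured genes in WT and 7.5% in KO, where the medians of all genes were -0.12 and -0.28. Thinned WT ligation 24 h cells held no UMI of Dbp or Nr1d1, so with a floor of 3 UMIs their WT ratios were at most -2.15 and -1.63. These are limits, and no smaller WT step is read from them. In thinned cells Nr1d2 was at -0.99 and Tef at -0.73 in WT, and the KO ratios were -3.07 for Dbp and -2.90 for Nr1d1. Arntl was at 0.04 in WT (interval -0.50 to 0.57) and -1.38 in KO (interval -1.80 to -0.96). Within the Mgl2 cluster Dbp was lower as well, at 2.91 CPM on 2 UMIs in WT ligation 24 h against 67.2 in sham (-4.53, interval -7.59 to -2.65), and Arntl was higher in WT (1.48, interval 0.47 to 2.49) and lower in KO (-0.92, interval -1.79 to -0.10).

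In the sham and ligation 24 h libraries Nfil3 was higher in myeloid than in endothelial cells. At 72 h this was not so throughout, since KO endothelial and mesothelial cells stood above WT monocytes and macrophages. Neutrophils held 183 CPM in WT sham and 204 in KO sham, 406 and 351 in WT and KO ligation 24 h, and 145 and 148 at 72 h. Monocytes and macrophages held 81.8, 81.7, 183, 136, 37.9 and 61.1 CPM in the same order, and dendritic cells, whose development is known to need Nfil3 in some lineages, 34.8, 31.8, 94.2, 74.0, 41.3 and 39.6. In all 3 types both ligation 24 h libraries were thus the highest. Against sham, Nfil3 in WT was higher by a log2 ratio of 1.15 in neutrophils (interval 0.99 to 1.31) and 1.16 in monocytes and macrophages (interval 1.04 to 1.28). In the former it was the one gene of 2 measured called higher (5% of all measured genes), and in the latter 1 of 8 (2.51%). The KO values were 0.78 and 0.74, less than 2-fold, but 1.11 and 1.06 with TMM factors and 1.03 and 1.05 with DESeq2 size factors. In dendritic cells Nfil3 was called higher in both genotypes, 1 of 2 measured genes in WT (2.37% of all) and 1 of 1 in KO (2.66%). Clock was called lower in KO neutrophils, at 4.19 CPM against 10.2 in sham (-1.28, interval -2.15 to -0.35), 1 of 3 measured (4.12% of all), and -0.96 with TMM factors. Between the genotypes, Nfil3 in monocytes and macrophages was lower in KO at 24 h (-0.43, interval -0.52 to -0.34) and higher in KO at 72 h (0.69, interval 0.55 to 0.83). Neither passed 2-fold: 0 of 5 measured genes were called at 24 h, against 1.43% of all lower and 0.548% higher, and 0 of 8 at 72 h, against 0.601% and 3.9%. The share of neutrophils with an Nfil3 UMI was 28.3% and 29.6% in WT and KO sham and 61.2% and 51.9% in ligation 24 h, against 0.691% to 3.42% of endothelial cells in those 4 libraries. Within the Mgl2 macrophage cluster Nfil3 went from 14.3 to 75.6 CPM in WT (2.40) and from 14.4 to 47.0 in KO (1.71).

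From 24 to 72 h after ligation the myeloid cells were in large part different clusters. In WT ligation 72 h, 3 clusters held 564, 544 and 187 of the 2118 monocytes and macrophages, where they had held 9, 9 and 0 cells at 24 h, and in KO 1 cluster went from 16 cells to 1212 of 2800. The ratios over the whole type therefore mix levels and cell states. In monocytes and macrophages Dbp went from 1.29 to 7.40 CPM in WT (log2 ratio 2.52, interval 1.65 to 3.54) and from 1.35 to 8.71 in KO (2.69, interval 2.04 to 3.39), and Tef was higher by 1.49 and 2.05 and Nr1d2 by 1.14 and 1.72. Nfil3 was lower by -2.27 in WT and -1.16 in KO. In WT 5 of 8 measured genes were called higher and 1 lower, where 11.5% and 6.87% of all measured genes were, and in KO 3 and 1 of 6 (9.72% and 2.83%). In WT dendritic cells Nfil3 and Clock, both of the genes measured, were called lower (5.38% of all). With cells thinned to 1000 UMIs, WT ligation 24 h held no UMI of Dbp or Nr1d1, and a floor of 3 UMIs was used. The WT ratios of Dbp (at least 1.01) and Nr1d1 (at least -0.92) are thus limits, and no change of sign is read from the latter. Thinned WT values of Nr1d2 (-0.069) and Per3 (-1.24) were below 0, so the direction of these 2 genes is not settled. Tef was at 0.15 in WT and 1.34 in KO. Within clusters the WT step of Nr1d2 ran from -0.03 in a cluster led by Ccl2 to 2.63 in the Ccl24 cluster. Nfil3 was lower within each WT cluster compared, from -1.92 to -0.33, and in 5 of 6 KO clusters, from -1.15 to 0.46. Neutrophils changed clusters as well: a cluster with 626 cells in WT and 1378 in KO ligation 24 h held 5 and 0 at 72 h. In neutrophils Nfil3 was lower by -1.49 in WT and -1.25 in KO, in comparisons where the median of all genes stood at 0.55 and 0.51. Nfil3 and Per2 were called lower in WT (2 of 2 measured, 6.9% of all) and Nfil3 in KO (1 of 2, 5.57%).

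Endothelial cells at 72 h rested on few UMIs. Dbp stood at 87.2 CPM in WT (50 UMIs) and 38.2 in KO (35 UMIs), above the 24 h level by a log2 ratio of 1.07 (interval 0.54 to 1.59) in WT and 1.12 (0.37 to 1.87) in KO. With the Apln and Pgf cluster included, the WT ratio was 0.48 and so under 2-fold. In WT 1 of 7 measured genes was called higher, against 2.62% of all measured genes. The KO ratio was 0.35 at a mitochondrial limit of 10%. Nr1d1 moved the other way, by -0.76 in WT and -0.90 in KO, in comparisons where the median gene stood at -0.21 and -0.15. Between the genotypes Dbp was lower in KO (-1.19, interval -1.86 to -0.54), 1 of 2 measured genes against 4.73% of all, but was -0.39 with the Apln and Pgf cluster included. Nfil3 in KO endothelium was 42.6 CPM at 72 h and 8.24 at 24 h (2.37, interval 1.46 to 3.37). It and Dbp were the 2 genes called higher of 5 measured in KO, against 5.94% of all. That library's endothelial cells also carried 5305 CPM of neutrophil markers against 114 to 1161 in the others, and the ratio was 0.97 when doublets were not removed. The cells also differed: a cluster led by Rflnb held 109 of 593 KO endothelial cells at 24 h and 437 of 602 at 72 h, and 28 of the 39 Nfil3 UMIs at 72 h came from it, where it had 0 at 24 h. The part of those markers and of that cluster in Nfil3 was not tested.

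Fibroblasts at 72 h were in part different cells, since a cluster led by Cthrc1, Col1a1 and Col1a2, genes of activated fibroblasts, held 843 of its 951 cells from KO ligation 72 h and 97 of the 147 fibroblasts of WT ligation 72 h. Fibroblasts of KO ligation 72 h also carried 15685 CPM of monocyte and macrophage markers beside 17302 of their own, whose part in the values was not tested. In WT, 7 of 9 measured genes were called lower than at 24 h, Hlf (-3.00), Nr1d1 (-1.97), Arntl (-1.68), Per3 (-1.48), Tef (-1.37), Nr1d2 (-1.21) and Clock (-1.17), in a comparison where 15.8% of all measured genes were called lower. Without the clusters that come over 80% from 1 library, Nr1d1 was at -0.14, Hlf at -0.35, Clock at -0.21, Per3 at -0.18, Tef at -0.17, Nr1d2 at 0.019 and Arntl at -0.90, so none of the 7 was 2-fold lower, and Nfil3 was at 1.51. In KO, 3 of 9 were called lower (8.37% of all) and 1, Dbp, higher (10.1% of all). KO Dbp went from 8.09 to 24.9 CPM (1.62, interval 0.88 to 2.43), and was 3.06 without those clusters and 0.28 after thinning. Without those clusters KO Nr1d1 was at 1.63 and Tef at 1.09, and the 3 called lower were at 0.95 (Hlf), -0.73 (Arntl) and 0.22 (Clock). Between the genotypes at 72 h, 0 of 8 measured genes were called, and Dbp was at 0.16 (interval -0.33 to 0.65), with 3.28% of all measured genes called lower and 8.96% higher. Without those clusters Nfil3 was at -1.10, Nr1d2 at -0.95 and Dbp at 0.73, and in thinned cells Arntl was at -1.98 and Nr1d1 at -1.08. In pericytes the KO against WT ratio of Dbp at 72 h was -0.59 (interval -1.45 to 0.27), and 1.99 without the pericyte cluster that came mostly from KO ligation 72 h, but -2.38 in thinned cells and -3.08 as a mean over cells. Of the 38 thinned WT ligation 72 h pericytes, 94.7% held no Dbp UMI. Few cells carry that level, which the counting interval does not cover.

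Dbp and Arntl are known to peak at opposite times of day, and the balance of their UMIs was taken as a measure that does not depend on the total of a cell type. Dbp made up 98.8% of the UMIs of both genes in WT sham endothelial cells (interval 98.4% to 99.2%) and 72.0% in KO sham (69.0% to 74.8%). In fibroblasts the shares were 93.5% and 42.2%, in pericytes 98.8% and 58.3%, in smooth muscle cells 96.8% and 68.6%, and in monocytes and macrophages 70.8% and 29.5%. KO sham was thus below WT sham in each of the 5 types, with no overlap of intervals. In endothelial cells this restates the contrast on which the list was selected. The 5 types share mice and libraries, so these shares add no independent support. At 24 h after ligation the shares were 61.3% in WT and 43.5% in KO endothelial cells, 55.0% and 22.1% in fibroblasts, and 16.4% and 21.9% in monocytes and macrophages. At 72 h the libraries of the 2 genotypes lay together, at 83.3% in both for endothelial cells and 73.3% and 72.3% for fibroblasts.

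**Figure D4:**
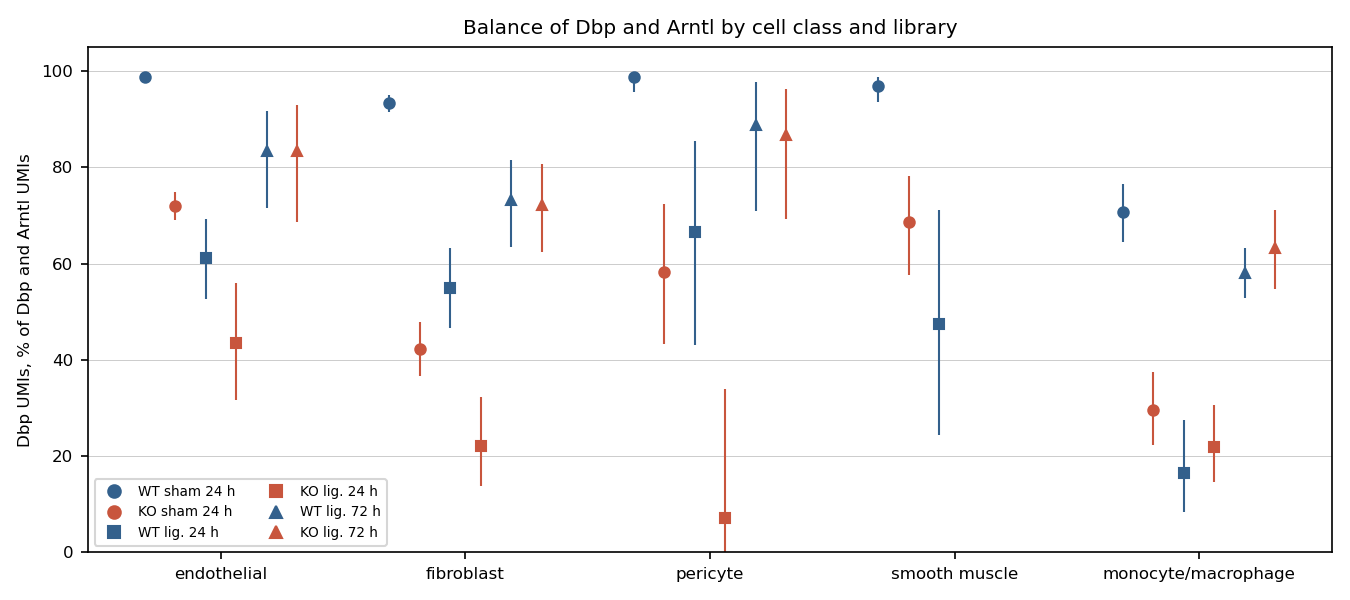
Dbp UMIs as a percent of Dbp plus Arntl UMIs by cell type and library, with 95% exact binomial intervals for counting error. WT sham is the highest library and lies at or above 93.5% in the 4 stromal types, and the 72 h libraries of WT and KO lie together.

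Other genes of the clock, from a list of 14, moved in part with the members. In endothelial cells 4 of 11 measured were at least 2-fold lower in KO sham and none higher, with a median of -0.76 against -0.06 over all genes. Of all measured genes 1.23% were called lower and 0.347% higher. This list too was chosen with earlier results of these data known, so its sham endothelial counts are a description and no independent support. The 4 were Ciart, a repressor of the Arntl and Clock pair (9.29 and 1.07 CPM), Bhlhe41 (20.8 and 2.60), Bhlhe40 (44.2 and 21.7) and Cry2 (30.5 and 11.4). In WT ligation 24 h against sham 2 of 10 were lower, Ciart and Bhlhe41, against 2.11% of all measured genes. In KO 0 of 9 were called, where 1.85% of all measured genes were called lower. Per1 was called in no sham contrast and stood at 46.2 CPM in WT and 19.4 in KO endothelial cells 24 h after ligation. In sham fibroblasts Bhlhe41 was lower in KO (52.4 and 18.6 CPM) and Cry1, a repressor that peaks late, higher (4.94 and 13.0). Of 10 clock output genes such as Usp2 and Wee1, 8 were measured in sham endothelium and none was called. The shares of all measured genes there were the 1.23% lower and 0.347% higher given above.

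Glucocorticoid target genes and genes induced by tissue dissociation were counted beside the clock genes. Both lists were likewise chosen with earlier results of these data known. In sham endothelial cells 1 of 10 glucocorticoid targets was called, Cdkn1a (84.6 CPM in WT and 276 in KO, higher), and 2 of 16 dissociation genes, Hspa1a (log2 ratio 1.17) and Hspa1b (4.27 and 14.7), near-identical copies whose reads cannot be separated with certainty. Over all measured genes 1.23% were called lower and 0.347% higher in that contrast. The medians of the lists were 0.00 and 0.11 in log2 against -0.06 over all genes. In WT ligation 24 h against sham 4 of 10 glucocorticoid targets were higher, among them Fkbp5 (12.8 to 35.3 CPM) and Cdkn1a (84.6 to 761), and 6 of 15 dissociation genes. Of all measured genes 1.93% were called higher. Between the genotypes 24 h after ligation 4 of 15 dissociation genes were lower in KO, Jun (424 and 209), Egr1 (86.3 and 25.9), Hspa1a (132 and 21.2) and Hspa1b (146 and 7.65). Of all measured genes 1.53% were called lower. At 72 h Klf9 (209 and 98.3) and Sgk1 (406 and 181) were lower and Fos (17.4 and 278) higher in KO. Their part in the clock gene values was not tested.

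Likeness to Dbp was measured as the Pearson correlation of log2(CPM + 10), each type centred on its own mean, over the 24 sums of 4 cell types and 6 libraries, among 11656 genes. The sums of a library share its mice and depth, so the coefficients describe these libraries. The sham endothelial sums, on which the list was selected, are among the 24, so high ranks of its genes are no independent evidence. Tef (0.941) and Per3 (0.941) were the 2 most like genes, Nr1d2 (0.859) the third, Hlf (0.794) the fifth and Nr1d1 (0.775) the eighth. Per2 was at 0.344 and Clock at 0.063, while Arntl (-0.435) and Nfil3 (-0.579) were opposed. The 5 most like genes outside the list were Cdk19 (0.833), Gm9993 (0.787), Kctd12b (0.777), Nr3c2 (0.761) and Zfp788 (0.759). In endothelial cells Cdk19, a kinase of the Mediator complex, stood at 94.6 CPM in WT sham, 66.9 in KO sham, 72.4 and 35.9 in WT and KO ligation 24 h and 64.5 and 40.4 at 72 h, a much narrower range than that of Dbp.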

How the data were processed

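Each of the 6 libraries was a 10x 3' single-cell RNA sample, and the values used were UMI counts per gene and cell in the matrices the authors deposited, made with Cell Ranger 6.0.0 and the mm10 build per the submitters' processing notes. Groups came from the labels, 1 library each. Cells with under 200 genes or over 20% mitochondrial UMIs were removed. Scrublet's automatic threshold marked 0 to 19 cells per library, so the cells with the highest doublet scores were removed at 0.8% per 1000 cells. Counts were scaled to 10000 per cell, 2000 variable genes (without Trpm4, the clock genes and the listed genes) gave 30 principal components, and a graph of 20 neighbours was clustered with Leiden at resolution 1 (scanpy 1.11.5, leidenalg 0.10.2). Clusters were named from at least 3 detected markers. UMIs were summed per type and library and divided by their total (CPM). Ratios have exact conditional intervals of 2 Poisson counts, which cover counting error only, and differences of responses combine the errors of both ratios. For a gene with 0 UMIs in 1 of the 2 libraries a floor of 3 UMIs was used, and the ratio is then a limit. The text names the 10 genes, listed genes at least 2-fold different in endothelial cells and the 5 genes most like Dbp. The genes and lists were chosen with earlier results of these data known. Clusters and genes singled out in the text beyond this rule were chosen after their values were seen. Other scalings (edgeR 4.0.16, DESeq2 1.42.0 size factors), filters, resolutions and thinning were tried. The scripts were tested on simulated data.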

Additional observations from a re-analysis of the deposited data

Results flagged for a closer look

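In 4 results the effect of the same contrast had opposite signs in different groups, each beyond its counting interval. The difference itself has no replicate check and was not tested. Dbp in fibroblasts, from 24 to 72 h after ligation, was -0.52 in WT (log2 ratio) and 1.62 in KO, a difference of 2.14. Without clusters that come over 80% from 1 library both were above 0, at 0.39 in WT and 3.06 in KO, the WT mean over cells was 0.07, and in the cluster led by Clec3b they were 0.20 and 2.17. Arntl in fibroblasts, ligation 24 h against sham, was 1.11 in WT and -0.51 in KO, a difference of -1.62. Within the Clec3b cluster the KO ratio was 0.10 (interval -0.42 to 0.59) and the WT ratio 1.04, and within the cluster led by Cxcl5 the KO ratio was -0.03. Nr1d1 in monocytes and macrophages, KO against WT, was -0.84 in sham hearts and 0.94 at 72 h after ligation, a difference of 1.78. Nfil3 in the same cells, KO against WT, was -0.43 at 24 h and 0.69 at 72 h after ligation, a difference of 1.12. The KO ligation 72 h library, which stands apart in depth and clusters, enters 3 of the 4.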

How the results depend on the processing

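In all, 210 log2 ratios of clock genes and 4 counts of called genes were recomputed, giving 2373 alternative values: 2215 stayed near the reported value, 150 moved and 8 turned the sign of a ratio past 2-fold. Limits set by the floor of 3 UMIs, where a gene had 0 UMIs on 1 side, are among the values counted here. Over all 210 ratios 107 alternative values had the other sign, and of 106 ratios past 2-fold 61 stayed past it in every setting. For endothelial Dbp, the KO against WT sham ratio was -2.47 at a mitochondrial limit of 10% and -2.80 with thinned cells, and at ligation 72 h it was -0.47 and -0.39 at Leiden resolutions 0.5 and 2, -0.46 without doublet removal and -0.39 with the Apln and Pgf cluster. The WT ligation 24 h against sham ratio was -3.58 at both resolutions and with that cluster, -3.66 without doublet removal and -3.57 thinned. From 24 to 72 h the WT ratio was 0.39 and 0.47 at the resolutions and 0.48 with the cluster or the mitochondrial limit, which also gave 0.35 in KO. The 2 endothelial genes called higher in KO sham were 1 at a minimum of 100 UMIs. The 1 called higher in WT ligation 24 h was 2 at a minimum of 20 or none, and 0 at 100. Without clusters that come over 80% from 1 library, among ratios past 2-fold, those of fibroblasts from 24 to 72 h changed sign for Nr1d2 in WT (0.019) and for Hlf (0.95) and Clock (0.22) in KO. Among the same ratios, thinned values had the other sign for 3 genes in WT from 24 to 72 h. They were fibroblast Arntl (0.49), and Nr1d2 (-0.069) and Per3 (-1.24) in monocytes and macrophages. Arntl was held by 2.03% of 197 thinned WT fibroblasts at 24 h and 2.86% of 140 at 72 h. Hlf in WT smooth muscle cells at 24 h was at 0.059. Nr1d1 in monocytes and macrophages (-0.92) was counted as well, but is a limit set by the floor, since thinned WT ligation 24 h cells held none of its UMIs. The cause of the other changes was not tested. The alternatives on the Apln and Pgf cluster and on clusters of 1 library were chosen after seeing the data. No paired analysis was possible because each group has 1 library. Depth limits Per2 in all stromal types, Arntl in mural cells and most genes at 72 h, where UMIs were few.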
